A study of Mus musculus with 16 samples.

Results

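The AP-1 subunit genes Fos, Fosb, Fosl1, Fosl2, Jun, Junb, Jund and Atf3 and the immediate early genes Egr1 and Ier3 were taken by symbol as 10 of the 49315 genes in the count table. All 10 passed the filter on low counts, which left 15993 genes for testing. AP-1 is a pair of basic leucine zipper proteins, one from the Jun family and one from the Fos family or the ATF family, that binds short sites in promoters and enhancers. Several of the genes that encode its subunits belong to the immediate early genes, which cells transcribe within minutes of a growth factor, a cytokine, a protease or physical injury without making new protein first. In airway epithelium this response follows the epidermal growth factor receptor and the mitogen-activated protein kinases, and its products act on genes of inflammation, cell shape and repair.

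MTECs are primary cultures of mouse tracheal epithelial cells, here from male (M) and female (F) wild-type (WT) mice and mice labelled LMAN1 knockout (KO), grown to differentiation at an air-liquid interface. LMAN1 is a cargo receptor that carries glycoproteins from the endoplasmic reticulum to the Golgi. The cultures were left naive or given 20 µg/ml house dust mite extract (HDM) overnight, so each library shows the state of the culture after hours of exposure and not the first transcriptional peak. The 8 groups (F WT naive, F WT HDM, F KO naive, F KO HDM and the same 4 in M) held 2 biological replicates each. The mice were C57BL/6J, with WT littermates as controls, tracheas were pooled, and the culture inserts carried a basement membrane laid down by mouse fibroblasts. The labels do not say which mice or pools each replicate came from, so the p-values measure the spread between these 16 libraries.

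Library totals ranged from 21860698 to 43442188 counts. The lowest count of any of the 10 genes in any library was 95 reads, for Fosl1. Lman1, the targeted gene, was at 101 to 144 CPM (counts scaled to the size of each library, with TMM factors) in the 8 WT libraries. Lman1 was at 12.8 and 12.8 CPM in F KO naive, at 14.2 and 63.4 CPM in M KO naive, at 66.6 and 78.1 CPM in F KO HDM and at 65.0 and 66.0 CPM in M KO HDM. The libraries labelled KO were therefore all below the WT range, but 5 of the 8 kept 63.4 CPM or more, and KO is used below only as the name on the label.

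The sum of 6 epithelial markers was at 7712 and 7876 CPM in F WT HDM, at 6280 and 5774 CPM in F KO HDM and at 3743 to 4577 CPM in the other 12 libraries, while the sum of 6 endothelial markers did not exceed 3.20 CPM. In the HDM tests below (adjusted p below 0.05), 4 epithelial markers rose and 1 fell in F WT, where 43.1% of all genes were called. In F KO 2 rose and 1 fell, where 10.4% of all genes were called. The sum of 8 club and goblet cell markers was at 4656 and 3766 CPM in F WT HDM and at 7881 and 7233 CPM in F KO HDM, against 13193 to 20283 CPM in the other 12 libraries. The sum of 8 basal cell markers was at 4192 and 2173 CPM in F WT HDM, against 7557 to 13811 CPM in the other 14 libraries. The sum of 8 fibroblast markers was uneven, at 547 CPM in F WT naive replicate 2 and 598 CPM in F WT HDM replicate 2 and at 2.99 to 158 CPM elsewhere. The sum of 6 smooth muscle markers was at 284 and 464 CPM in F WT HDM, against 60.3 and 146 CPM in F WT naive, and at 135 and 93.4 CPM in F KO HDM, against 27.5 and 46.8 CPM in F KO naive. The sum of 8 leukocyte markers was at 94.5 and 90.03 CPM in F WT HDM and at 162 to 288 CPM in the other 14 libraries. The sum of 7 ciliated cell markers was at 88.4 and 97.8 CPM in F WT HDM, against 105 and 147 CPM in F WT naive, and at 60.6 and 68.2 CPM in F KO HDM, against 128 and 148 CPM in F KO naive. In M WT it was at 156 and 65.4 CPM without and at 147 and 78.9 CPM with HDM. In M KO it was at 171 and 69.2 CPM without and at 63.4 and 65.8 CPM with HDM. The median log2 change of the 7 markers with HDM was -2.20 in F WT, -1.59 in F KO, -0.08 in M WT and -1.63 in M KO. In F, the epithelial and smooth muscle sums were higher and the club and goblet, ciliated and leukocyte sums lower in both HDM libraries under either label, and the basal sum was lower in WT. The ciliated sum was also lower in both HDM libraries of M KO. The part of these sums in the results below was not tested. In bulk libraries, fewer cells of a type and less RNA per cell cannot be told apart.

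On GRCm38 (GENCODE M21) the protein-coding genes of the Fos family lie at chr12:85473890-85477273 (Fos, plus strand), chr7:19302696-19310051 (Fosb, minus strand), chr19:5447547-5455946 (Fosl1, plus strand) and chr5:32135801-32157842 (Fosl2, plus strand). Those of the Jun family lie at chr4:95049034-95052222 (Jun, minus strand), chr8:84974484-84978718 (Junb, minus strand) and chr8:70698949-70700616 (Jund, plus strand). Atf3 lies at chr1:191170296-191218039 (minus strand) and Ier3 at chr17:35821684-35822923 (plus strand). Counts were taken over whole genes, so they do not tell isoforms apart.

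The sequences before 4 of the genes are shown because these genes parted ways in the HDM-treated F cultures: Jun, Fosb and Ier3 were higher in F WT HDM and Fos was not. Each is the 250 bases upstream of the RefSeq transcription start on GRCm38.p6, written 5′ to 3′ on the gene's strand. Capitals mark a CRE-type site (TGACNTCA), the shorter CRE core (TGACG), a GC box (GGGCGG) or an EGR site (GCGNGGGCG), on either strand. The windows are chr12:85473640-85473889 (plus strand) for Fos, chr7:19310046-19310295 (minus strand) for Fosb, chr4:95052223-95052472 (minus strand) for Jun and chr17:35821463-35821712 (plus strand) for Ier3.
Fos: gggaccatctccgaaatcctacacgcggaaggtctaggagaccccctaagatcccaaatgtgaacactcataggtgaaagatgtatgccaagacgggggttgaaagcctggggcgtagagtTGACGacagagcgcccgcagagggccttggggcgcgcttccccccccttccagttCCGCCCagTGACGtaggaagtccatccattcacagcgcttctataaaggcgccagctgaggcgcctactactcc
Fosb: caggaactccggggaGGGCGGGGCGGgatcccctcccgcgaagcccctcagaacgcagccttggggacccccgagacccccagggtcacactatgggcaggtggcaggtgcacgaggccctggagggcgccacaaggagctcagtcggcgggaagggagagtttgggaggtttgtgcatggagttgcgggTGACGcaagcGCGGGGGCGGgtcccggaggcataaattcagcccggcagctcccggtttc
Jun: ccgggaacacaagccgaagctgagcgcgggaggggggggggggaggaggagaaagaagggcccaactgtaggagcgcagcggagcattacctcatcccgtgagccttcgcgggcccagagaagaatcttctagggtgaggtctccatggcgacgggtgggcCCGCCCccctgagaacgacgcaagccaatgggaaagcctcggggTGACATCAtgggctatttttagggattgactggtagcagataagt
Ier3: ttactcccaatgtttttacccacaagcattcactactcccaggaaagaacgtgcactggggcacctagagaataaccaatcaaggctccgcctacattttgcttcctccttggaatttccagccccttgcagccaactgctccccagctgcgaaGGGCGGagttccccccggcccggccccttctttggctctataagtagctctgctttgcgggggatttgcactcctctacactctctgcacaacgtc
Windows were found for 8 of the 10 genes, without Fosl1 and Egr1. The Jund window ends at base 70697738 of chromosome 8, upstream of the gene's start in GENCODE, so it may not be the promoter used here, and it held none of the motifs searched. The windows of Atf3 (chr1:191183334-191183583) and Fosl2 (chr5:32136222-32136471) lie inside their GENCODE genes, so they too may not be the promoters used here. The Ier3 and Fosb windows run past the GENCODE starts of their genes, that of Ier3 from base 35821684 to 35821712. None of the 8 held the AP-1 site TGANTCA, which was in 6.75% of 32851 promoter windows of the same length. The Jun window alone among the 8 held a TGACNTCA site, from 45 to 38 bases before the start, and 7.49% of all windows held one. The CRE core TGACG was in 4 of the 8 windows (Fos, Fosb, Junb and Atf3) and in 17.8% of all windows. A GC box was in 6 of the 8 windows and in 32.7% of all, and an EGR site, which overlapped a GC box in both cases, was in Fosb and Fosl2 and in 4.70% of all. GC content was 47.6% in the Jund window and 54.4% to 68.8% in the others, against a median of 52.4% over all windows. The part of GC content in these motif shares was not tested. A match describes these letters only and is not evidence of binding.

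The first question was how much RNA of each subunit gene these cultures held. The values are shares of RNA and not of protein. Levels between genes were compared as CPM per kb of exon. The Jun family total was 223 to 351 CPM per kb and the Fos family total 27.4 to 42.0 CPM per kb, a ratio of 6.23 to 9.29 in the 16 libraries. Jund, which encodes the Jun protein most often found in resting cells, made up 51.2% to 62.2% of the Jun family total, Junb 23.4% to 32.3% and Jun 12.4% to 18.9%. Fosl2, which encodes Fra-2, a Fos protein without the strong activation domain of Fos, made up 53.4% to 69.2% of the Fos family total. Fos made up 12.4% to 29.5%, Fosl1 (Fra-1) 5.74% to 27.2% and Fosb 2.10% to 4.08%. The ratio and the shares depend on the gene length used. For Fosl2 the union of exons was 9680 bases and the longest transcript 6537 bases. Junb overlaps Prdx2 on the other strand, and strand settings are not given.

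The Fosl1 and Fos shares of F WT HDM lay outside those of all other libraries. Fosl1 made up 24.1% and 27.2% of the Fos family total there, against 8.32% and 16.5% in F WT naive. Fos made up 12.4% and 13.5% in F WT HDM, against 20.9% and 24.2% in F WT naive. Fosl1 was above Fos in both replicates there and in no other group. In F KO HDM the Fos and Fosl1 shares lay close together, at 21.3% and 19.2% for Fos and at 19.5% and 18.4% for Fosl1. The Jund share of the Jun family was 62.2% and 61.6% in F WT HDM and did not exceed 59.1% in any other library. The Jun share was 17.4% and 18.4% in F KO HDM, against 12.7% and 14.0% in F KO naive.

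**Figure D1:**
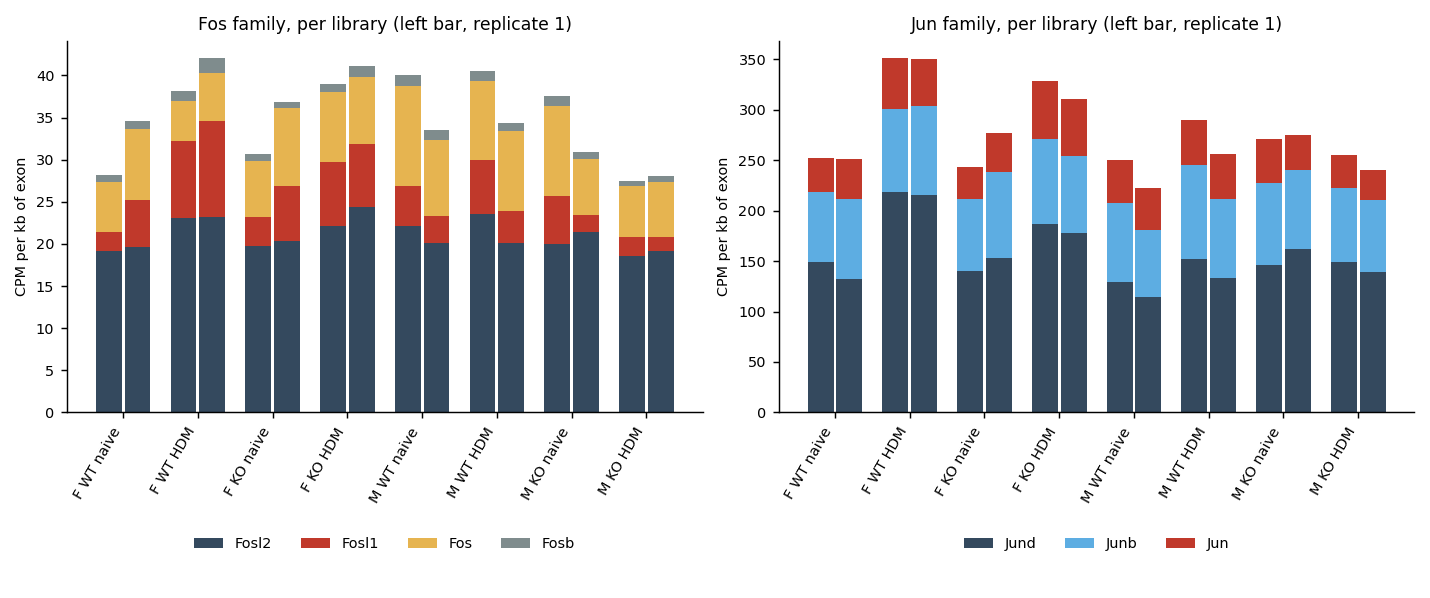
Stacked bars show CPM per kb of exon for the 4 Fos family genes (left panel) and the 3 Jun family genes (right panel) in each of the 16 libraries, with replicate 1 on the left of each pair. Fosl1 reaches 24.1% and 27.2% of the Fos family total in F WT HDM, and the Jun family total is highest there, at 351 and 350 CPM per kb.

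The HDM response was then taken in each sex and label as HDM minus naive, on the log2 scale of edgeR. In F WT cultures 6 of the 10 genes rose (Fosb, Fosl1, Fosl2, Jun, Jund and Ier3) and none fell. Over all genes tested, 43.1% were called in this comparison and 20.6% were called higher, and the median change was 0.52 over the 10 genes and -0.02 over all genes. In F cultures labelled KO 1 of the 10 genes rose, Jun, where 10.4% of all genes were called and 4.63% were called higher. In M WT and in M cultures labelled KO no gene of the 10 was called, where 0% of all genes were called in either. Without adjustment, 1 of the 10 in M WT and 4 of the 10 in M KO had p below 0.05, and DESeq2 also called 0 in both. The median change over the 10 genes in M KO was -0.38, and it was -0.10 without M KO naive replicate 1.

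**Figure D2:**
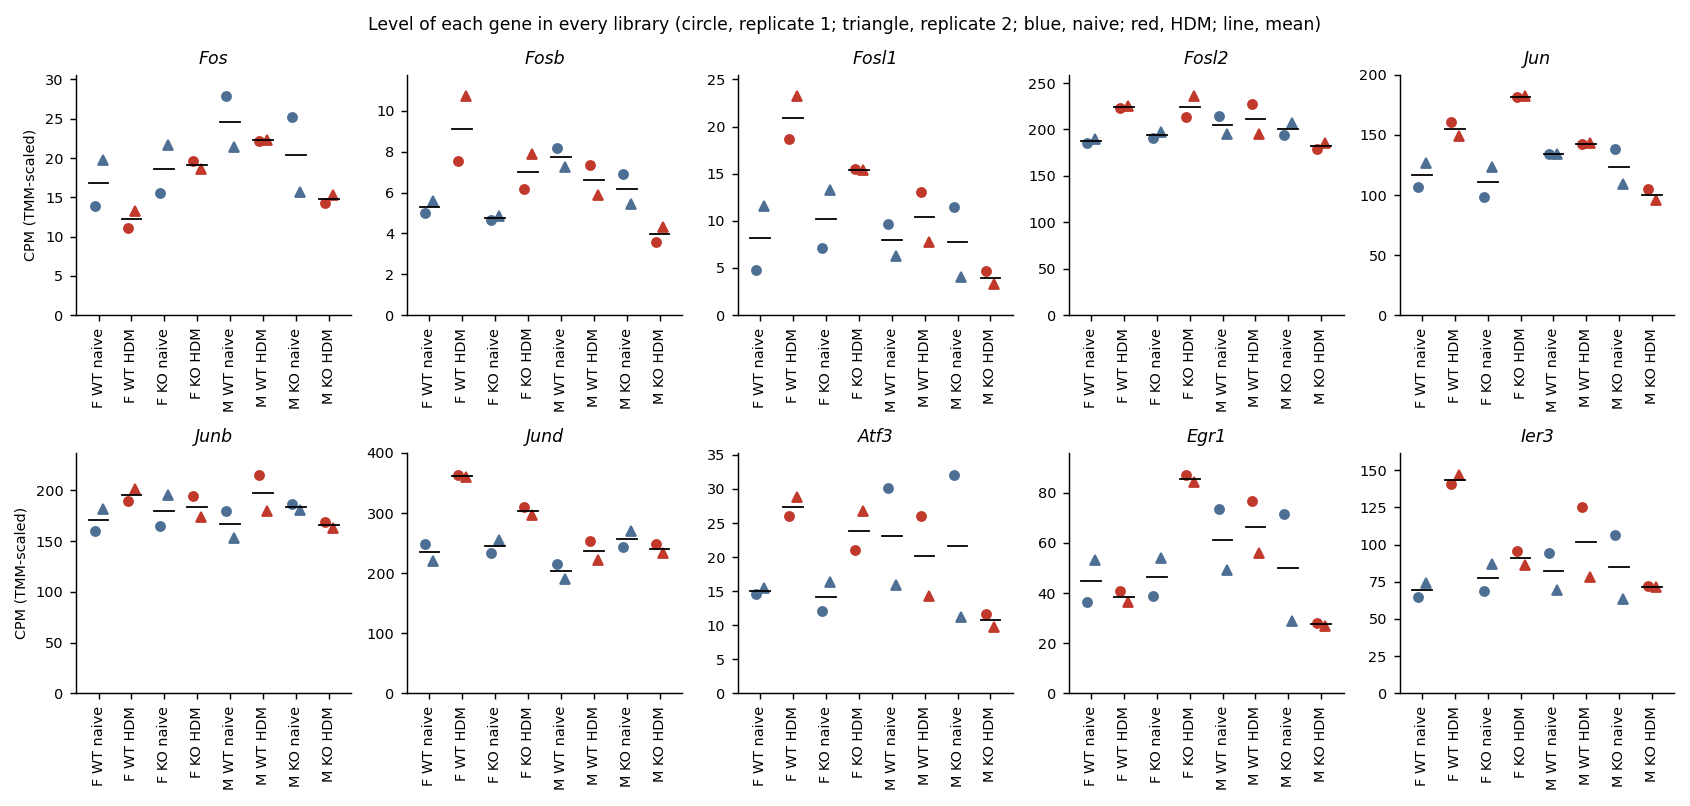
Each panel shows 1 gene, with TMM-scaled CPM from 0 on the vertical axis, the 8 groups on the horizontal axis, replicate 1 as a circle, replicate 2 as a triangle and the group mean as a line. Jund and Ier3 stand highest in F WT HDM, Egr1 and Jun in F KO HDM, and Fos is lowest in F WT HDM, at 11.1 and 13.3 CPM.

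Among the Fos family, Fosl1 had the highest ratio of highest to lowest level, 7.10, from 3.27 to 23.2 CPM over the 16 libraries. Fosl1, a growth factor and ERK target linked to migration and wound repair, was at 4.76 and 11.6 CPM in F WT naive and at 18.7 and 23.2 CPM in F WT HDM. It was at 7.12 and 13.3 CPM in F KO naive and at 15.5 and 15.4 CPM in F KO HDM. In both pairs the HDM libraries lay above the naive ones. Fosl1 rose 2.54-fold in F WT (log2 1.34 ± 0.51 SE, adjusted p = 0.0497, quasi-likelihood F-test of edgeR after Benjamini-Hochberg correction). This call was lost with upper-quartile scaling, with library size alone, in a fit of the compared libraries alone, and without F WT naive replicate 1 (log2 0.85), F WT HDM replicate 1 or F WT HDM replicate 2. In F KO the change was 0.60 ± 0.50 (edgeR adjusted p = 0.50). The gene shares part of its locus with Ccdc85b on the other strand, and whether counting used strand is not given in the sources used here.

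In M cultures Fosl1 followed no such order. It was at 9.64 and 6.33 CPM in M WT naive and at 13.0 and 7.72 CPM in M WT HDM, which overlap. In M KO naive it was at 11.5 and 4.07 CPM, and in M KO HDM at 4.64 and 3.27 CPM. The libraries labelled M KO HDM had the lowest mean of the 8 groups for Fosl1, Fosb, Fosl2, Jun, Junb, Atf3 and Egr1. M KO naive replicate 2, whose Lman1 was also near that of the M KO HDM libraries, lay nearer to them than to M KO naive replicate 1 for Fosl1, Fos, Jun, Atf3, Egr1 and Ier3.

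Fosb, the least abundant of the family here, was at 5.01 and 5.60 CPM in F WT naive and at 7.53 and 10.7 CPM in F WT HDM. It rose by 0.78 ± 0.21 on the log2 scale (edgeR adjusted p = 0.011), a call lost without F WT naive replicate 1 or F WT HDM replicate 2 (log2 0.50). Fosb was at 4.67 and 4.83 CPM in F KO naive and at 6.17 and 7.88 CPM in F KO HDM, where the groups did not overlap but the change of 0.56 ± 0.21 missed the threshold (edgeR adjusted p = 0.12). In M WT the groups overlapped, with 8.19 and 7.27 CPM in M WT naive and 7.34 and 5.87 CPM in M WT HDM. In M KO naive Fosb was at 6.93 and 5.44 CPM, above the 3.60 and 4.30 CPM of M KO HDM, and neither M change was called.

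Fosl2 had the lowest ratio of highest to lowest level of the 10 genes, 1.31, from 179 to 236 CPM. It was at 185 and 190 CPM in F WT naive and at 223 and 225 CPM in F WT HDM, a rise of 0.26 ± 0.08 (edgeR adjusted p = 0.027). The call was lost with library size alone, with no filter on low counts, and on leaving out any 1 of the 4 libraries. In F KO Fosl2 was at 191 and 197 CPM without and at 214 and 236 CPM with HDM, a change of 0.21 ± 0.08 (edgeR adjusted p = 0.13).

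Fos itself did not follow its relatives. It was at 13.8 and 19.7 CPM in F WT naive and at 11.1 and 13.3 CPM in F WT HDM, where both replicates were below every library of the other 7 groups. The change was -0.46 ± 0.24 (edgeR adjusted p = 0.14). In F KO it was at 15.6 and 21.7 CPM without and at 19.6 and 18.5 CPM with HDM, which overlap. The M WT groups had the highest Fos means, with libraries at 27.8 and 21.4 CPM in naive and 22.2 and 22.3 CPM in HDM. Neither group lay above the next in both replicates. In M KO Fos was at 25.2 and 15.6 CPM without and at 14.2 and 15.3 CPM with HDM, with no change called in M.

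Of the Jun family, Jund had the smallest adjusted p in F WT. It was at 249 and 221 CPM in F WT naive and at 364 and 359 CPM in F WT HDM, the 2 highest of all libraries. The rise of 0.62 ± 0.10 (1.54-fold, edgeR adjusted p = 0.00035) held with each of the 4 libraries left out in turn. In F KO it was at 234 and 255 CPM without and at 311 and 297 CPM with HDM, a change of 0.31 ± 0.10 (edgeR adjusted p = 0.060). In M WT it was at 216 and 190 CPM without and at 253 and 222 CPM with HDM, and in M KO at 244 and 270 CPM against 248 and 233 CPM. In order of the means, F WT HDM lay above F KO HDM and F KO HDM above the rest in both replicates, while none of the next 4 groups lay above its next neighbour in both replicates.

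Jun (c-Jun), the subunit activated by the JNK kinases, was the gene called in both F comparisons. It was at 106 and 127 CPM in F WT naive and at 160 and 150 CPM in F WT HDM, a rise of 0.41 ± 0.13 (edgeR adjusted p = 0.020), which was lost without F WT naive replicate 1 or F WT HDM replicate 1. It was at 98.6 and 123 CPM in F KO naive and at 182 and 182 CPM in F KO HDM, a rise of 0.72 ± 0.13 (1.64-fold, edgeR adjusted p = 0.0050), which was lost without F KO naive replicate 1. The F KO HDM libraries were the 2 highest of the 16. In M, Jun was at 134 and 134 CPM in WT naive, 143 and 143 CPM in WT HDM, 138 and 109 CPM in KO naive and 105 and 95.5 CPM in KO HDM. In order of the means F KO HDM, F WT HDM and M WT HDM each lay above the next group in both replicates, and from M WT naive down no group lay above its next neighbour in both replicates. Its promoter window was the one with the TGACNTCA site shown above. The windows of Fosb, Fosl2 and Ier3, also called in F WT, held no such site. Any part of the site in these levels was not tested.

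Junb, which dimerizes with Fos proteins but is a weaker activator than Jun, was not called in any of the 15 comparisons. Its levels lay within 153 to 215 CPM, and no group had both replicates above the group next to it in order of the means. In F WT it was at 160 and 181 CPM without and at 189 and 201 CPM with HDM, a change of 0.19 ± 0.12 (edgeR adjusted p = 0.20). Junb overlaps Prdx2, an abundant gene on the other strand.

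Atf3, a stress-induced bZIP factor that pairs with Jun proteins, was at 14.6 and 15.5 CPM in F WT naive and at 26.0 and 28.8 CPM in F WT HDM. It was at 12.1 and 16.3 CPM in F KO naive and at 21.0 and 26.7 CPM in F KO HDM. The HDM libraries lay above the naive ones in both, but the changes of 0.86 ± 0.44 and 0.75 ± 0.44 were not called (edgeR adjusted p = 0.13 and 0.31). In 3 of the 4 M groups the replicates lay further apart than in any F group. Atf3 was at 30.2 and 15.9 CPM in M WT naive, at 26.1 and 14.3 CPM in M WT HDM and at 32.1 and 11.1 CPM in M KO naive, so replicate 1 was the higher in each of these 3 groups. In M KO HDM it was at 11.7 and 9.74 CPM. Replicate 1 was also the higher in the same 3 groups for Fosl1, Egr1 and Ier3.

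Egr1, a zinc finger immediate early factor induced through SRF and the ERK pathway, was not higher in F WT HDM. It was at 36.5 and 53.2 CPM in F WT naive and at 40.7 and 36.5 CPM in F WT HDM, a change of -0.22 ± 0.35 (edgeR adjusted p = 0.65). In F KO naive it was at 39.0 and 53.9 CPM and in F KO HDM at 87.2 and 84.1 CPM, the 2 highest of all libraries. That change was 0.88 ± 0.35 (edgeR adjusted p = 0.13). In M WT it was at 73.5 and 49.2 CPM without and at 76.7 and 56.0 CPM with HDM, and in M KO at 71.4 and 28.9 CPM against 28.0 and 27.0 CPM.

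Ier3, an early response gene that modulates ERK signalling and cell survival, showed the converse order. It was at 64.8 and 74.2 CPM in F WT naive and at 140 and 147 CPM in F WT HDM, the 2 highest of all libraries. The rise of 1.05 ± 0.25 (2.07-fold, edgeR adjusted p = 0.0060) was lost without F WT naive replicate 1. In F KO it was at 68.7 and 86.9 CPM without and at 95.6 and 86.3 CPM with HDM, a change of 0.23 ± 0.25 (edgeR adjusted p = 0.63). In M WT it was at 94.3 and 69.6 CPM without and at 126 and 77.9 CPM with HDM, and in M KO at 106 and 63.4 CPM against 72.0 and 71.5 CPM.

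**Figure D3:**
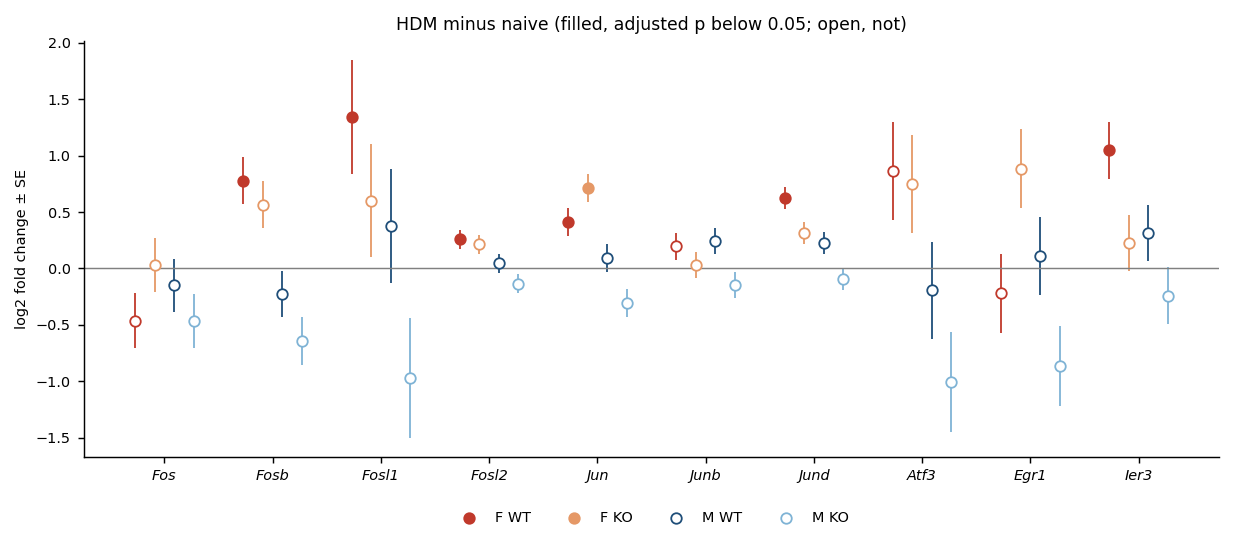
Points show the log2 fold change of HDM minus naive for each gene in the F WT, F KO, M WT and M KO cultures, with bars of 1 SE from edgeR, and filled points are those with adjusted p below 0.05. All 10 changes were below 0 in M KO and all 10 above 0 in F KO, and the filled points belong to F WT (6 genes) and F KO (Jun). Without M KO naive replicate 1, 9 of the M KO changes were below 0. Without F KO naive replicate 1 or F KO HDM replicate 1, 8 of the F KO changes were above 0.

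Whether the sexes responded differently was tested as the difference of the HDM responses, F minus M. In WT, where 24.2% of all genes were called, 1 of the 10 was called, Fosb, whose response was higher in F by 1.00 ± 0.29 on the log2 scale (edgeR adjusted p = 0.029). The Fosb call was lost in a fit of the compared libraries alone and without M WT naive replicate 1, M WT HDM replicate 2, F WT naive replicate 1, F WT naive replicate 2 or F WT HDM replicate 2. Jund was at 0.40 ± 0.14 (edgeR adjusted p = 0.052). In cultures labelled KO, where 3.56% of all genes were called, 1 of the 10 was called, Jun, at 1.02 ± 0.18 (edgeR adjusted p = 0.014). The Jun call was lost without M KO HDM replicate 2, F KO naive replicate 1 or F KO HDM replicate 2. Fosb in KO was at 1.21 ± 0.30 (edgeR adjusted p = 0.050, above the threshold before rounding) and Egr1 at 1.75 ± 0.50 (edgeR adjusted p = 0.080). The difference between the F KO and F WT responses was called for 0 of the 10 genes, where 11.2% of all genes were called. Lman1 was among the genes called, at 2.67 ± 0.64 (edgeR adjusted p = 0.024). By that test 3 of the 10 had an unadjusted p below 0.05, and DESeq2 called 0. The differences nearest to a call were those of Ier3, at -0.82 ± 0.35 (edgeR adjusted p = 0.15), Jund, at -0.31 ± 0.14 (edgeR adjusted p = 0.16), and Egr1, at 1.11 ± 0.49 (edgeR adjusted p = 0.17).

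Among HDM-treated cultures labelled KO, 6 of the 10 genes were higher in F than in M and none lower, where 25.3% of all genes were called and 12.4% were called higher. Egr1 was higher by 1.64 ± 0.36 (3.11-fold, edgeR adjusted p = 0.0067) and Jun by 0.86 ± 0.13 (1.82-fold, edgeR adjusted p = 0.00068). Fosl1 was higher by 1.96 ± 0.53 (3.90-fold, edgeR adjusted p = 0.019). Fosb, Jund and Fosl2 were higher by 0.83, 0.34 and 0.30. Jun held with each of the 4 libraries left out. Egr1 was lost without M KO HDM replicate 2, Fosb and Fosl2 without either M KO HDM replicate or F KO HDM replicate 2, and Fosl1 and Jund without any 1 of the 4.

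Among HDM-treated WT cultures, 2 of the 10 genes differed, where 41.6% of all genes were called and 20.3% were called higher in F. Jund was higher in F by 0.61 ± 0.10 (edgeR adjusted p = 0.00045), a call that held with each of the 4 libraries left out. Fos was 1.82-fold lower in F, at -0.87 ± 0.24 (edgeR adjusted p = 0.014), a call lost without F WT HDM replicate 1. Egr1 was at -0.78 ± 0.35 (edgeR adjusted p = 0.097), on the other side of 0 from its difference in KO.

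Between the labels, Egr1 was the 1 gene of the 10 called in F HDM, where 29.2% of all genes were called and 14.9% were called higher in KO. It was 2.22-fold higher in F KO HDM than in F WT HDM (log2 1.15 ± 0.35, edgeR adjusted p = 0.031), and the call was lost without any 1 of the 4 libraries. In M HDM none of the 10 was called and 0% of all genes were, 6 of the 10 had an unadjusted p below 0.05, and DESeq2 called 2. All but Jund were lower in KO there, with Egr1 at -1.27 ± 0.36 (edgeR adjusted p = 0.17) and Fosl1 at -1.39 ± 0.53 (edgeR adjusted p = 0.22). Lman1 itself was called in neither comparison. Its KO minus WT difference was -0.59 ± 0.44 in F HDM (edgeR adjusted p = 0.33) and -0.96 ± 0.44 in M HDM (edgeR adjusted p = 0.27).

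Without HDM no gene of the 10 was called between the sexes or the labels. Over all genes 0.1% were called between the sexes in WT, 0.188% between the sexes in KO and 0% between the labels in F or in M. Unadjusted p-values below 0.05 numbered 2 for the sexes in WT, 0 for the sexes in KO, 0 for the labels in F and 1 for the labels in M, and DESeq2 called 0 in all 4.

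**Figure D4:**
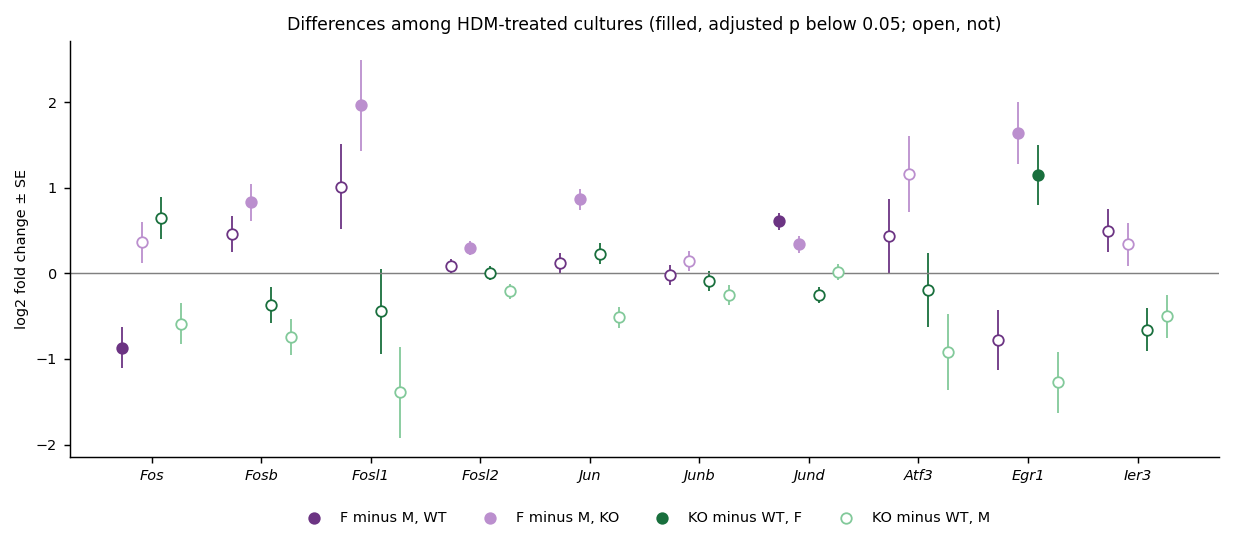
Points show log2 differences among the HDM-treated cultures for each gene, F minus M in WT and KO and KO minus WT in F and M, with bars of 1 SE from edgeR and filled points for adjusted p below 0.05. Egr1 lies at 1.64 for F minus M in KO and at -0.78 in WT.

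Other genes of the pathway were read from 5 lists. Of 21 MAPK feedback inhibitors tested, phosphatases and adaptor proteins that ERK signalling induces and that damp it, 15 rose and 2 fell in F WT with HDM, where 43.1% of all genes were called and 20.6% were called higher, with a median change of 0.67 against -0.02 over all genes. In F KO 7 rose and 1 fell, where 10.4% of all genes were called and 4.63% were called higher. Dusp5, a nuclear ERK phosphatase, was at 7.48 and 9.37 CPM in F WT naive and at 27.9 and 38.4 CPM in F WT HDM. Spry1 was at 33.6 and 35.2 CPM without and at 120 and 145 CPM with HDM, and Errfi1, an inhibitor of the EGF receptor, at 41.0 and 45.2 CPM against 128 and 162 CPM. Spry2 fell in both F WT and F KO, by 0.94 and 0.61 on the log2 scale.

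Of 34 known AP-1 target genes tested, 15 rose and 0 fell in F WT, a total near the 43.1% called over all genes (20.6% higher), with a median of 0.80. In F KO 2 rose and 0 fell, where 10.4% of all genes were called and 4.63% were called higher. Plau, the urokinase protease, was at 15.7 and 33.0 CPM in F WT naive and at 126 and 212 CPM in F WT HDM. Tnfrsf12a, the TWEAK receptor, was at 62.9 and 96.2 CPM without and at 340 and 432 CPM with HDM. Spp1, which fibroblasts also express, was at 16.9 and 117 CPM without and at 227 and 1000.5 CPM with HDM. Plau, Tnfrsf12a, Spp1, Fn1 and Fosl1 were each higher in replicate 2 than in replicate 1 in both F WT groups, and replicate 2 also had the higher fibroblast marker sum in both. This order was not particular to these genes. Fos, Fosb, Fosl2, Junb, Atf3, Ier3, Dusp5, Spry1 and Errfi1 also had it, and Jun, Jund, Egr1 and Spry2 did not. The part of fibroblast content in these values was not tested. In the comparison of F KO HDM with F WT HDM, 10 of the 34 were lower in KO and 0 higher, a total near the 29.2% of all genes called there. Over all 15993 genes tested, 2284 were called lower in KO and 2385 higher.

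Of 41 other immediate early genes tested, 16 rose and 6 fell in F WT, with a median of 0.38, against 43.1% of all genes called, 20.6% higher and an all-gene median of -0.02. In F KO 5 rose and 0 fell, against 10.4% called and 4.63% higher. Ccn1 and Ccn2, secreted matricellular proteins, rose by 3.12 ± 0.33 and 3.23 ± 0.34 in F WT and by 1.15 ± 0.31 and 1.13 ± 0.32 in F KO. Id1 and Sik1 fell in F WT, by 1.73 and 0.93. Of 26 other bZIP partners tested 8 rose and 7 fell in F WT, with a median of -0.08, against the same 43.1% called and 20.6% higher over all genes, among them Crem, a cAMP-responsive factor, which rose by 0.85 ± 0.12, and Cebpa, a factor of differentiated airway epithelium, which had the largest fall (by 1.25 ± 0.20). Of 32 MAPK and SRF regulators tested 9 rose and 10 fell in F WT, with a median of -0.08, against the same shares. Elk3, an ETS partner of SRF, rose by 1.40 ± 0.16, and Mapk12, a p38 kinase, fell by 1.08 ± 0.11. In M WT and M KO no gene of these 5 lists was called for HDM, in comparisons where no gene at all was called.

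**Figure D5:**
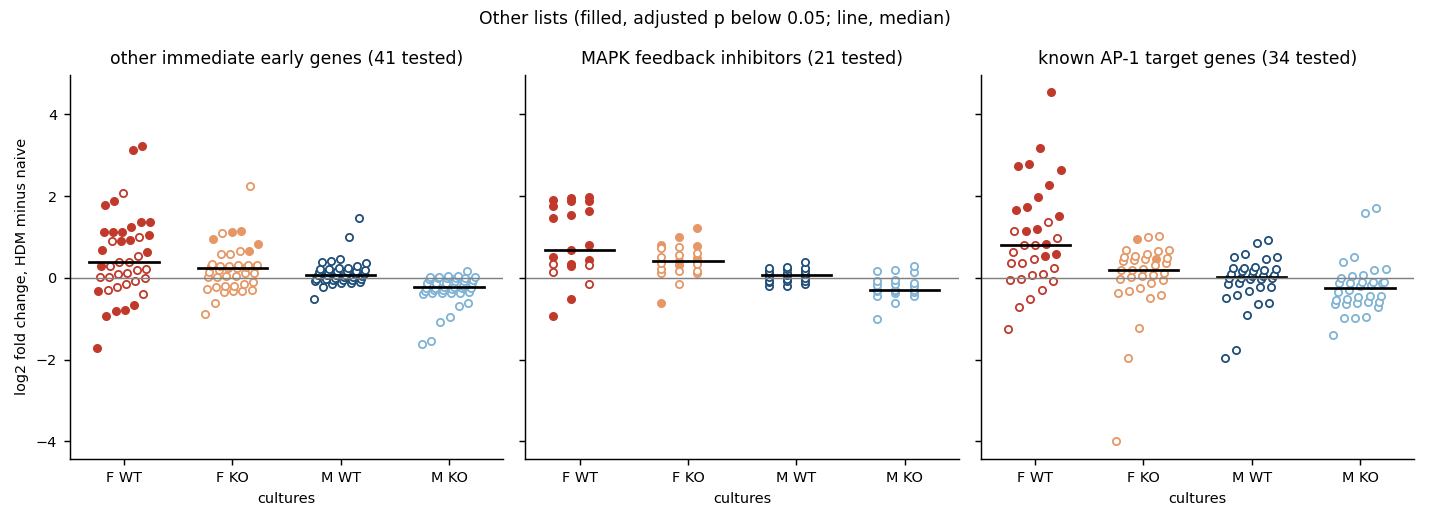
Points show the log2 fold change of HDM minus naive for every tested gene of 3 lists (41 other immediate early genes, 21 MAPK feedback inhibitors, 34 known AP-1 target genes) in the 4 kinds of culture, filled where adjusted p was below 0.05, with the median as a line. The medians in F WT are 0.38, 0.67 and 0.80.

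Over the 16 libraries, 45 pairs of the 10 genes had a median Pearson correlation of log2 CPM of 0.61, with 17 pairs above 0.7 and 3 below 0. This is a description only, since the libraries fall in 8 groups and differ in sequencing depth. The highest was that of Fosb and Atf3 (r = 0.84), and the lowest that of Fos and Jund (r = -0.59). The genes most like Fosl1 among all tested were Igsf9, Ereg (epiregulin, a ligand of the EGF receptor) and Tgfb1, at r = 0.97, 0.97 and 0.97. Those most like Atf3 were Etv5, an ETS factor, F2rl1 (protease-activated receptor 2) and Il1r1 (the interleukin-1 receptor), at 0.95, 0.94 and 0.93. Those most like Ier3 were Pomgnt1, Ctnna1 and Gm5860, at 0.97, 0.96 and 0.96. Jun was most like Cbfb, Mid2 and Pomt2 (0.94, 0.93 and 0.93), Jund most like Fxr2, Lzts2 and Sh3bp4 (0.94 each), and Egr1 most like Cdca4, Hmmr and Rell1 (0.93, 0.92 and 0.91). Fos was most like Aig1, Dpyd and Ptn (0.91, 0.91 and 0.90), Fosb most like Slc30a7, Lmbr1 and Slc30a4 (0.93, 0.91 and 0.89), Fosl2 most like Utrn, Arhgap35 and Tent4a (0.92, 0.91 and 0.91), and Junb most like Ybx3, Mbd3 and Gna11 (0.87, 0.87 and 0.86).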

How the data were processed

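RNA was measured in 16 libraries of MTECs, 2 per group. The table that the authors deposited holds unnormalized read counts for each Ensembl identifier. The submitters' processing notes name Trimmomatic 0.36, STAR 2.5.2b, featureCounts, Subread 1.5.2, DESeq2 and GRCm38, without roles or order. Strand settings are not given in the sources used here. Libraries were made from enriched mRNA and amplified by PCR, with no molecular identifiers stated.

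Counts were matched to samples by column name and to GENCODE M21 on GRCm38 by identifier. For 259 of 49315 identifiers, holding 0.0106% of counts, no entry was found. Genes were filtered with edgeR's filterByExpr, scaled by TMM and fitted with edgeR 4.0.16 quasi-likelihood (R 4.3.3) over all 8 groups, with p-values adjusted by Benjamini-Hochberg over 15993 genes and a threshold of 0.05. The standard error is the log2 fold change divided by the square root of the F statistic. CPM per kb used the union of exons. Scripts were tested on simulated data. Genes were named as all 10 members, up to 6 rising and 4 falling called genes of each list in F WT, of which fewer are printed, and the 3 most correlated genes per member. The members and lists were chosen with earlier results of these data known. Alternatives were DESeq2 1.42.0, upper-quartile scaling, library size alone, other filters, the compared libraries alone, a replicate block, a fold minimum and leaving out each library. Sequences are RefSeq's on GRCm38.p6. One gene of the lists is not reported here.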

Additional observations from a re-analysis of the deposited data

Results flagged for a closer look

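The HDM response differed between the sexes, by a test of the difference itself, for 1 of the 10 genes in WT, where 24.2% of all genes were called, and for 1 of the 10 in KO, where 3.56% were. A share of 1 in 10 in WT is below that of all genes. The Fosb response in WT was higher in F by 1.00 ± 0.29 on the log2 scale (edgeR adjusted p = 0.029), with both F WT HDM libraries above both F WT naive libraries, and the M WT groups overlapping. The Jun response in cultures labelled KO was higher in F by 1.02 ± 0.18 (edgeR adjusted p = 0.014), with both F KO HDM libraries above and both M KO HDM libraries below their naive counterparts. In M KO naive the 2 replicates were at 138 and 109 CPM for Jun and at 14.2 and 63.4 CPM for Lman1. The part of that library difference in the Jun result was not tested. Groups of 2 libraries were too small for a test of outlying samples.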

How the results depend on the processing

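The values here are numbers of the 10 genes called, and the cause of each change was not tested. HDM response in F WT (6 genes): 2 with a fold minimum of 1 on the log2 scale, and 1 to 5 without 1 library. HDM response in F KO (1): 5 with no filter on low counts, 4 with the compared libraries alone, 2 with the replicate block, 2 with DESeq2, 0 with the fold minimum, and 0 to 1 without 1 library. HDM response in M KO (0): 3 with no filter. Sex difference in WT HDM (2): 6 with no filter, 0 with the fold minimum, and 2 to 3 without 1 library. Sex difference in KO HDM (6): 2 with the fold minimum, and 1 to 4 without 1 library. Label difference in F HDM (1): 2 with upper-quartile scaling, 2 with library size alone, 3 with no filter, 2 with at least 10 counts in every library, 3 with the compared libraries alone, 4 with DESeq2, and 0 without any 1 library. Label difference in M HDM (0): 7 with no filter and 2 with DESeq2. Sex difference in naive WT (0): 3 with no filter, and in naive KO (0): 1 with no filter. Sex by HDM in WT (1): 2 with upper-quartile scaling, 4 with no filter, 2 with at least 10 counts in every library, 0 with the compared libraries alone, 4 with the replicate block, 2 with DESeq2, and 0 to 3 without 1 library. Sex by HDM in KO (1): 6 with no filter, 2 with at least 10 counts in every library, 2 with the compared libraries alone, 4 with the replicate block, 4 with DESeq2, and 0 to 4 without 1 library. Label by HDM in F (0): 2 with no filter and 2 with the compared libraries alone. The other counts stayed within 1.5 times, and no called gene changed sign: of 126 values of the 18 called changes under settings other than leaving out a library, 120 kept their call, and of 80 without 1 library 39 did.

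The replicate numbers are shared between groups, but the labels do not say that they mark a shared pool, and each comparison has 2 pairs. Same-numbered libraries deviated from their group means with correlations of -0.164 to 0.483 over the comparisons. With the pairs crossed, chosen after seeing the data, M KO gave 0 genes of the 10 and 0 of all genes for HDM, and naive KO gave 0 and 24 for sex. The Fosl1 share of the Fos family was higher by 13.2 percentage points in F WT HDM than in F WT naive, and by 4.16 without dividing by length.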
